A study of Mus musculus with 8 samples.

Results

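Described here were 10 genes of the Hippo pathway and its read-out in embryonic mouse molars: the matricellular genes Ccn1 and Ccn2, the angiomotin-like genes Amotl2 and Amotl1, Fjx1, Ajuba, the co-activator genes Yap1 and Wwtr1, the transcription factor gene Tead1 and the kinase gene Lats2. They are 10 of the 43629 genes in each count table, and all 10 were among the 17129 genes that passed the filter on low counts. The genes were picked by name because several of them were known to be lower in the mutant molars of this same comparison, so their levels are given below as a description, without a test, and no count of how many of them were lower supports anything.

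The study asked which genes change in the tooth when the Notch ligand gene Jagged1 (Jag1) is lost from the epithelium. RNA was sequenced from the lower first molars of 8 mouse embryos at E18.5, late in gestation, the left and right tooth of an embryo making up 1 sample. The 4 control embryos (J3, J5, J6 and J7) were littermates labelled Jagged1 fl/fl, which the study's methods call WT, and the 4 mutant embryos (K14J26, K14J28, K14J29 and K14J30) were K14Cre;Jagged1 fl/fl, so by the labels both groups carried the floxed alleles and only the mutants the Cre. The K14 promoter drives Cre in epithelial cells, which leaves the Jag1 of the dental mesenchyme, blood vessels and nerves in place in the same sample. Sex and litter of each embryo were not given.

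In the Hippo pathway, a kinase cascade that ends in the LATS kinases phosphorylates YAP (Yap1) and its paralogue TAZ (Wwtr1) and keeps them out of the nucleus. When they are not phosphorylated, YAP and TAZ bind the TEAD factors on DNA and switch on target genes, among them Ccn1 and Ccn2, whose secreted proteins act on integrins and growth factors in the matrix. In the developing tooth YAP is active in the dental epithelium, where it takes part in growth and in shaping the enamel knot. Because YAP and TAZ are controlled largely by where the protein sits, transcript levels of the pathway do not measure its activity.

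TEAD factors recognise the letters CATTCC, and the promoters of the members were searched for them because they are the DNA read-out of YAP and TAZ. The windows were the 250 bases before the annotated start in RefSeq's table for GRCm38.p6, which held 7 of the 10 genes. It had no record for Ccn2, Fjx1 and Tead1, so these were not searched. Both strands were searched, so that GGAATG is the same word on the other strand. Of the 3 windows shown, Ccn1 lies at chr3:145649986-145650235 on the minus strand, Amotl2 at chr9:102717554-102717803 on the plus strand and Ajuba at chr14:54577662-54577911 on the minus strand. They are printed 5′ to 3′ with CATTCC in capitals, as a pair of genes whose transcripts were lower in the mutant molars and 1 gene whose groups overlapped in the TMM-scaled levels.
Ccn1: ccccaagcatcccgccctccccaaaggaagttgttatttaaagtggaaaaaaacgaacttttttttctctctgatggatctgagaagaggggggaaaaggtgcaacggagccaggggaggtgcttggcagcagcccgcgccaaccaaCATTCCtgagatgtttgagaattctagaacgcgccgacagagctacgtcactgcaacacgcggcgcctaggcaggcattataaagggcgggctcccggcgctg
Amotl2: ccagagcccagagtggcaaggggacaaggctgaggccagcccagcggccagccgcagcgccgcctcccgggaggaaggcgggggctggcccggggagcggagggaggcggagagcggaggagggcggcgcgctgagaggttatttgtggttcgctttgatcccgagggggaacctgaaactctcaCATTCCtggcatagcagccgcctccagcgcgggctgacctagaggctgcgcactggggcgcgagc
Ajuba: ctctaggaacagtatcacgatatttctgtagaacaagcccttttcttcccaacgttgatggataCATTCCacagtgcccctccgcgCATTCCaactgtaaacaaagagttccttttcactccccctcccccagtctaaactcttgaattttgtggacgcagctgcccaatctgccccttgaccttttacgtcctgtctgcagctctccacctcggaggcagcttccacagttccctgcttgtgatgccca

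The word stood 103 bases before the start of Ccn1, 65 bases before that of Amotl2, and at 186 and 164 bases before that of Ajuba. As GGAATG it also stood 141 bases before the start of Yap1, and once upstream of Wwtr1, where its overlapping windows place the same site 136 or 170 bases before the start of the record. The letters were not in the window of Amotl1 or in either window of Lats2. Of all 32851 promoter windows of this length, 12.6% held the word on one strand or the other. A match is a run of letters and not a measured binding site, and the word was present both in genes whose groups did not overlap and in genes whose groups did (Ajuba and Wwtr1 in the TMM-scaled levels). Also searched were the serum response factor box (CArG), the RBPJ word GTGGGAA, read by the DNA-binding partner of Notch, and the AP-1 word TGANTCA. They were found in 1.47%, 5.42% and 6.75% of the windows and in none of the windows of the 7 members searched.

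The tables held between 17327224 and 28613574 counts per control embryo and between 24692128 and 29792467 per mutant embryo. Levels are given in CPM, the count of a gene scaled to a common library size after TMM normalization, with the mean ± SD over 4 embryos, and a fold change is the mutant over the control group with its standard error (SE). At these depths 3 counts amount to 0.0998 to 0.166 CPM, far below every member. The targeted gene Jag1 was at 95.2, 103, 104 and 99.8 CPM in the controls and at 34.0, 38.9, 45.9 and 57.1 CPM in the mutants, a log2 fold change of -1.19 (SE 0.14), and the quasi-likelihood test of edgeR gave a Benjamini-Hochberg adjusted p of 0.00517. Over all tested genes the same test called 2764 (16.1%), of which 1631 (9.52%) were higher and 1133 (6.61%) lower in the mutants.

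Some tissue and embryo differences move with the groups, and their part in the results on the members was not tested. The summed level of 5 ameloblast genes (Amelx, Ambn, Enam, Mmp20 and Klk4) was 557 to 3252 CPM in the controls and 3500, 9637, 25804 and 114298 CPM in K14J28, K14J30, K14J29 and K14J26, and 4 of these 5 genes were called higher. The summed level of 3 odontoblast genes was 556 to 1803 CPM in the controls against 2168 to 7158 CPM in the mutants, and that of 6 dental epithelial genes, Krt14 and Epcam among them, was 4654 to 5368 against 5483 to 8078 CPM. Skeletal muscle genes, 8 in number, summed to 363 CPM in control J6 and 171 CPM in control J7, and to between 3.71 and 14.8 CPM in the other 6 embryos. Endothelial genes summed to 303 to 340 CPM in the controls and 245 to 300 CPM in the mutants, and Tie1 among them was called lower. The sums of the pericyte and smooth muscle genes overlapped, at 362 to 444 against 307 to 427 CPM. Of these genes Pdgfrb was called lower (log2 fold change -0.39) and Kcnj8 higher (0.48), each without overlap, and Myh11 was at -0.55 without a call. The 6 dental mesenchyme genes summed to 6467 to 9143 CPM in the controls and 8105 to 19274 CPM in the mutants, a sum made up mostly of Col1a1 (called higher, with Pdgfra), while Msx1 was called lower. The 4 osteoblast genes summed to 506 to 723 against 588 to 954 CPM, and Bglap and Sp7 among them were called higher. K14J28 had the highest osteoblast sum but was the lowest mutant for Bglap, at 31.3 CPM. Macrophage genes summed to 148 CPM in K14J28 and to 49.9 to 81.3 CPM in the other 7 embryos. That high sum came from Csf1r (92.7 CPM) and Cd68 (42.3 CPM). Adgre1 and C1qa, at 4.79 and 7.95 CPM in K14J28, lay within the range of the other embryos. Xist, the transcript of the inactive X chromosome, reached 1928 CPM in mutant K14J28 and 1467 CPM in mutant K14J29, and was 1.09 CPM or less elsewhere. None of the marker genes was at 0 in every embryo, and in these whole molars fewer cells of a type cannot be told apart from less RNA per cell.

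Ccn1 (ENSMUSG00000028195), which encodes a secreted, integrin-binding matricellular protein, lies at chr3:145646976-145649981 on the minus strand. Its level was 30.8, 31.2, 29.7 and 38.2 CPM in controls J3, J5, J6 and J7, and 7.83, 13.5, 11.1 and 12.1 CPM in mutants K14J26, K14J28, K14J29 and K14J30. The groups lay far apart, with K14J26 the lowest mutant and J7 the highest control. The group means were 32.5 ± 3.87 CPM for controls and 11.1 ± 2.40 CPM for mutants. This is a log2 fold change of -1.54 (SE 0.16), or 34.3% of the control level. These values rest on 557 to 1131 counts in the controls and 163 to 405 counts in the mutants.

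Ccn2 (ENSMUSG00000019997), formerly connective tissue growth factor, is the paralogue most often used as a YAP read-out and lies at chr10:24595442-24598683 on the plus strand. The controls had 138, 135, 128 and 154 CPM and the mutants 57.5, 81.7, 60.0 and 65.5 CPM. Again J7 was the highest control and K14J26 the lowest mutant, and K14J28 was the highest mutant. Control embryos averaged 139 ± 11.3 CPM and mutants 66.2 ± 10.9 CPM. The log2 fold change was -1.07 (SE 0.11), corresponding to 47.8% of the control level. The annotation places an opposite-strand transcript, Gm15270, over 665 bases of the exons of Ccn2. Gm15270 had a mean of 65.1 counts per embryo, beside 1197 to 4570 counts of Ccn2. How reads of the shared bases were assigned is not known.

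Per kilobase of exon, Ccn2 stood above Ccn1 in each embryo, and the ratio between them did not overlap between the groups. Ccn2 was 3.15, 3.05, 3.04 and 2.85 times the level of Ccn1 in the controls and 5.18, 4.28, 3.81 and 3.83 times in the mutants. The lowest mutant ratio therefore lay above the highest control ratio, Ccn1 having fallen further than Ccn2 in each mutant embryo.

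Amotl2 (ENSMUSG00000032531), an angiomotin family protein that tethers YAP at junctions and is itself a YAP target, lies at chr9:102716672-102733418 on the plus strand. The controls had 71.7, 67.6, 82.6 and 79.8 CPM and the mutants 46.5, 43.6, 43.0 and 45.1 CPM. The 4 mutants were closely alike, with a coefficient of variation of 3.57% against 9.24% in the controls, and K14J26, the extreme embryo for Ccn1, was here the highest mutant. The log2 fold change was -0.76 (SE 0.08).

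Fjx1 (ENSMUSG00000075012), the vertebrate homologue of four-jointed, a Golgi kinase that modifies Fat and Dachsous cadherins in flies, lies at chr2:102449366-102452499 on the minus strand. Its level was 35.5, 36.5, 37.5 and 34.0 CPM in the controls and 21.2, 25.7, 21.5 and 21.6 CPM in the mutants. The controls were close together and above each mutant, and K14J28 stood apart from the other 3 mutants on the side of the controls. The mean was 35.9 ± 1.49 CPM in the controls and 22.5 ± 2.11 CPM in the mutants, and the log2 fold change was -0.67 (SE 0.08), leaving 62.8% of the control level.

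The groups overlapped for Amotl1 and Ajuba, whose proteins bind YAP or the LATS kinases at junctions. Amotl1 (ENSMUSG00000013076, chr9:14541966-14645056, minus strand), the paralogue of Amotl2, was at 323, 357, 332 and 384 CPM in the controls and 420.0, 360.2, 398 and 368 CPM in the mutants, with a log2 fold change of 0.15 (SE 0.08). It was the only member with a higher mean in the mutants, and within the angiomotin-like pair the fitted differences had opposite signs. Ajuba (ENSMUSG00000022178, chr14:54567472-54577558, minus strand), a LIM protein that holds back LATS, was at 190.0, 192, 211 and 190.0 CPM in the controls and at 216, 157, 188 and 180.1 CPM in the mutants, a log2 fold change of -0.08 (SE 0.09). Mutants K14J26 and K14J28 bracketed all controls for Ajuba. Scaled by library size alone, without TMM, the Ajuba groups no longer overlapped, at 197 to 218 CPM in the controls and 164 to 183 CPM in the mutants, with a log2 fold change of -0.19.

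Of the co-activators, Yap1 (ENSMUSG00000053110, chr9:7931999-8004596, minus strand) was at 252, 243, 237 and 261 CPM in the controls and 205, 228, 198 and 207 CPM in the mutants, without overlap. The log2 fold change was -0.24 (SE 0.06), the smallest among the members whose groups did not overlap. Wwtr1 (ENSMUSG00000027803, chr3:57455649-57575910, minus strand), which encodes TAZ, was at 116, 126, 116 and 135 CPM in the controls and 147, 105, 123 and 106 CPM in the mutants. Here the mutants spanned a wider range than the controls, from below the lowest control to above the highest, and the log2 fold change was -0.04 (SE 0.11).

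Tead1 (ENSMUSG00000055320, chr7:112679318-112906807, plus strand), a DNA-binding partner of YAP and TAZ, was at 133, 145, 142 and 168 CPM in the controls and 81.1, 132, 100.1 and 106 CPM in the mutants. The groups only just stayed apart, with 1.29 CPM between control J3 and mutant K14J28, and the mutants ranged from 55.2% to 89.6% of the control mean. The log2 fold change was -0.49 (SE 0.14). Lats2 (ENSMUSG00000021959, chr14:57689662-57758388, minus strand), the kinase that inhibits YAP and is also one of its targets, was the least abundant of the 10 genes per kilobase. It was at 25.9, 28.8, 29.3 and 32.8 CPM in the controls and 24.5, 24.2, 22.4 and 21.2 CPM in the mutants, 1.40 CPM apart at the nearest, with a log2 fold change of -0.34 (SE 0.09). An annotated transcript on the same strand, Gm49361, shares 2955 bases of exon with Lats2, so reads of the region may have been assigned differently by other counting.

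**Figure D1:**
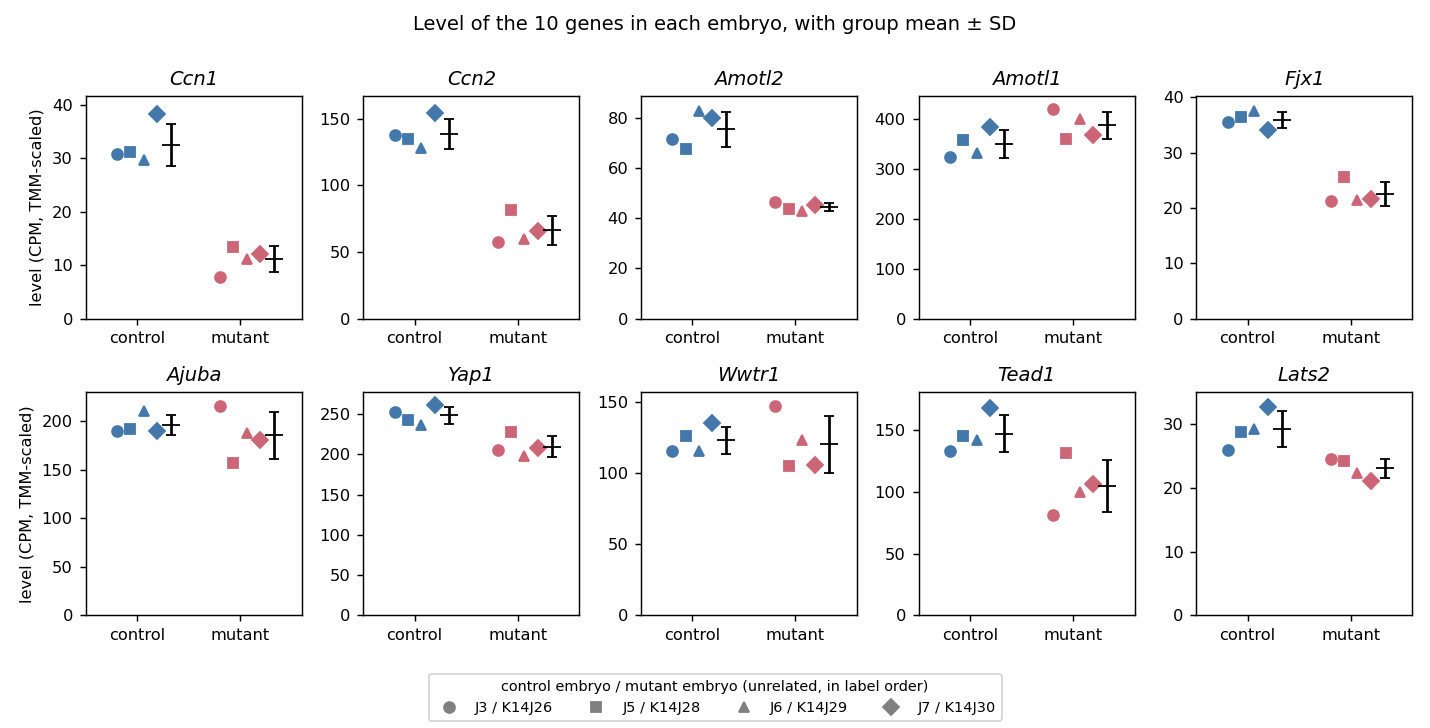
Level of each of the 10 genes (y axis, CPM after TMM scaling, from 0) in the 4 control (blue) and 4 mutant (red) embryos, with the group mean ± SD in black. The symbols name the embryos and do not pair them. Ccn1 lies at 29.7 to 38.2 CPM in the controls and 7.83 to 13.5 CPM in the mutants, while the groups overlap for Amotl1, Ajuba and Wwtr1.

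In all, 7 of the 10 members had lower levels in each mutant than in any control, and 0 had higher levels in each mutant. Over all genes, 11.6% of those tested were lower without overlap, but the members came from this comparison and nothing is read from the difference. Their median log2 fold change was -0.41, beside 0.01 over all tested genes. In absolute CPM, a scale that depends on the level of each gene, the narrowest gaps were those of Tead1 and Lats2, at 1.29 and 1.40 CPM. Yap1, at a higher level, had 236.9 CPM in its lowest control and 227.8 CPM in its highest mutant.

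**Figure D2:**
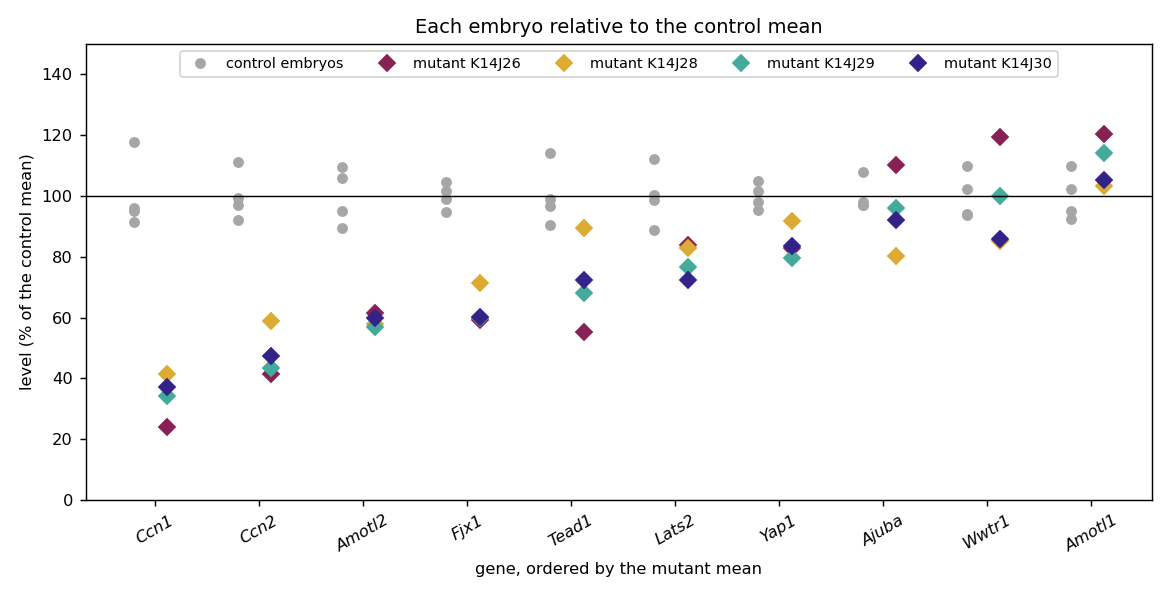
Level of each gene in each embryo as a percentage of the control mean (y axis), with the genes on the x axis in the order of the mutant mean. Grey points are the 4 controls and coloured diamonds the 4 mutants. The mutants run from 24.1% to 41.5% for Ccn1, and K14J26 is lowest for Ccn1 and highest for Ajuba, Wwtr1 and Amotl1.

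The mutants were not alike across the 7 lower members. K14J28 was the highest mutant for 5 of them (Ccn1, Ccn2, Fjx1, Yap1 and Tead1), and K14J26 was the lowest for 4 (Ccn1, Ccn2, Fjx1 and Tead1) but the highest for Amotl2 and Lats2. For Ccn1, K14J28 kept 41.5% and K14J26 24.1% of the control mean, and for Ccn2 the same embryos kept 58.9% and 41.5%. K14J28 was also the mutant with the lowest ameloblast sum and K14J26 the one with the highest, as given above. When a score of the 5 ameloblast genes was added to the fit as a covariate, a step chosen after the data were seen, the log2 fold changes of Ccn1, Ccn2 and Tead1 became -1.06 (SE 0.14), -0.73 (SE 0.10) and -0.10 (SE 0.12). Those of Amotl2, Fjx1 and Lats2 became -0.82, -0.58 and -0.37, close to the values without it, while Yap1 moved from -0.24 to -0.12 and Ajuba and Wwtr1 to -0.38 and -0.32. The score separates the groups (4.74 to 6.88 in the controls and 6.945 to 11.8 in the mutants, mean log2 CPM), so in this fit the score and the genotype cannot be told apart.

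With embryos left out, the 7 lower members kept negative values. Without mutants K14J28 and K14J29, which had the high Xist level, the log2 fold change was -1.70 for Ccn1, -1.17 for Ccn2, -0.72 for Amotl2 and -0.65 for Tead1. Without controls J6 and J7, which had the muscle transcripts, it was -1.47 for Ccn1, -1.04 for Ccn2, -0.65 for Amotl2 and -0.41 for Tead1. With each embryo left out in turn, Ccn1 stayed between -1.65 and -1.41, Ccn2 between -1.19 and -1.004, Amotl2 between -0.82 and -0.72, and Fjx1 between -0.75 and -0.64. The range was -0.62 to -0.38 for Tead1, -0.39 to -0.29 for Lats2 and -0.29 to -0.22 for Yap1. Amotl1 ran from 0.11 to 0.19. The sign of Wwtr1 was not fixed, with values from -0.15 to 0.02, and Ajuba, between -0.16 and -0.01, turned to 0.04 with Xist as a covariate and to 0.01 without K14J28 and K14J29.

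**Figure D3:**
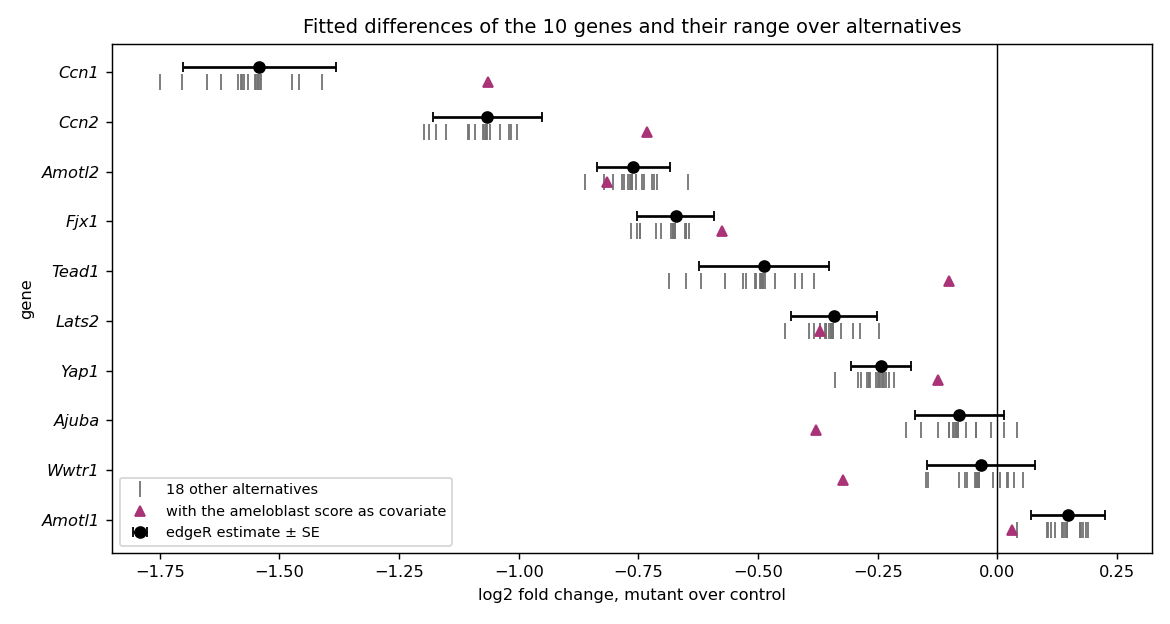
Log2 fold change of each gene, mutant over control (x axis), in the edgeR fit with its SE (black), under 18 other settings (grey ticks) and with the ameloblast score as a covariate (triangles). With that covariate Ccn1 moves from -1.54 to -1.06 and Tead1 from -0.49 to -0.10, while Amotl2 goes from -0.76 to -0.82.

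Between genes, levels were compared per kilobase of exon, as CPM per kb. In the controls the order was Ajuba (53.7 ± 2.78), Ccn2 (48.4 ± 3.95), Amotl1 (34.7 ± 2.73), Yap1 (26.8 ± 1.13), Wwtr1 (25.8 ± 1.97), Ccn1 (16.1 ± 1.92), Amotl2 (12.0 ± 1.11), Fjx1 (11.5 ± 0.475), Tead1 (10.8 ± 1.08) and Lats2 (4.19 ± 0.405). Neighbours whose control ranges overlapped were Ajuba and Ccn2, Yap1 and Wwtr1, Amotl2 and Fjx1, and Fjx1 and Tead1. In the mutants Ccn2 dropped from the second to the fourth place, at 23.1 CPM per kb and next to Yap1, and Ccn1 from the sixth to the ninth, at 5.51 CPM per kb. Ajuba stayed first at 50.8 and Lats2 last at 3.31 CPM per kb.

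The genes with the pattern over the 8 embryos most like that of Ccn1 were found by the root mean square difference of centred log2 CPM among 11906 genes. They were B3gnt5 (0.136), Lmo1 (0.196), Tfap2c (0.207), Lrrn1 (0.209) and Adamts20 (0.225), and Ccn2 came at rank 12 with 0.278. For Ccn2 the nearest were Zfp423 (0.0942), Zfp367 (0.131), Tfap2a (0.133), Zcchc18 (0.135) and 9930014A18Rik (0.138), with Fjx1 at rank 81, Amotl2 at rank 97 and Ccn1 at rank 166. Genes outside the pathway thus followed Ccn2 over these 8 embryos more closely than any member did. Among the members the closest pair was Yap1 and Lats2 (0.112), then Ajuba and Wwtr1 (0.116), and Ccn1 and Amotl1 were the furthest apart (0.900). These values share the same 8 libraries and are descriptions without a test.

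The other genes of the pathway were taken from lists of textbook components and run through the edgeR quasi-likelihood fit, the p-values being adjusted over all 17129 genes by the Benjamini-Hochberg method, beside 16.1% called among all genes. Without controls J6 and J7, which leaves 2 controls, none of the genes of these lists passed and 7 passed among all genes, Jag1 being at an adjusted p of 0.115. With the ameloblast score as a covariate 298 genes passed, and of the lists Cnn2 kept its call (-0.38, adjusted p 0.0468) and the LIM protein gene Wtip gained one (-0.47, adjusted p 0.0387). In that fit the log2 fold changes of Tead2, Myl9, Zyx and Wwc2 were -0.18, -0.18, -0.13 and -0.13, those of Rbms3, Amot and Dchs1 were -0.26, -0.24 and -0.22, and those of Taok2, Myof and Tjp1 were 0.27, 0.13 and 0.09. Other genes lost the call at values close to those without the covariate, namely Vgll2 at -1.27, Foxf2 at -0.70, Atf3 at -0.51, Jun at -0.45, Vgll4 at -0.19 and Stk4 at 0.26. Of the 14 Hippo kinases and adaptors, 2 rose, 1 fell and 11 did not pass. Taok2, an upstream kinase, rose by 0.44 on the log2 scale (SE 0.07, adjusted p 0.00991), and Stk4, the core kinase MST1, rose by 0.26 (SE 0.06, adjusted p 0.0277). Wwc2, a relative of the scaffold KIBRA, fell by 0.30 on the log2 scale (SE 0.09, adjusted p 0.0432), and its exons share bases with Cldn22. Lats1, the paralogue of Lats2, was at a log2 fold change of 0.13 (adjusted p 0.287), and Nf2, the upstream regulator merlin, at 0.10 (adjusted p 0.477). Taok2 kept its call whichever embryo was left out, with an adjusted p of at most 0.0428. Stk4 lost it without J3, J5, J6, J7 or K14J29 (adjusted p up to 0.0841), and Wwc2 without J3, J5, J6, J7, K14J26 or K14J29 (up to 0.1197).

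Of 6 junctional partners of YAP and TAZ, 1 rose and 1 fell. Tjp1, the tight-junction scaffold ZO-1, rose by 0.39 on the log2 scale (SE 0.10, adjusted p 0.0329). Amot, the founding angiomotin, fell by 0.39 on the log2 scale (SE 0.10, adjusted p 0.0351), although its groups overlapped. In direction it stood with Amotl2 and not with Amotl1. Tjp1 lost its call without J3, J5, J6, J7 or K14J29 (adjusted p up to 0.0929), and Amot without those 5 or K14J30 (up to 0.0981). Of the 6 Fat and Dachsous cadherins, whose fly counterparts are modified by four-jointed, only Dchs1 passed. It fell by 0.46 on the log2 scale (SE 0.11, adjusted p 0.0268), a call lost without J3, J5, J6, J7 or K14J29 (up to 0.0809). Dchs2 was at 0.50 (adjusted p 0.0874) and did not pass. The study's own unadjusted p and fold-change rule was met by Dchs2, as higher, and not by Dchs1.

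All 6 tested TEAD and VGLL factors had negative fold changes under each scaling tried, beside a median of 0.01 over all tested genes with TMM scaling. Of these 6 factors 3 were called lower, beside 6.61% of all tested genes. The sign of 2 uncalled ones was not fixed, since Vgll3 was at 0.24 without controls J6 and J7 and Tead4 at 0.0049 with the ameloblast score as a covariate. Vgll1 had at most 1 count per embryo and was not tested. Tead2 fell by 0.45 on the log2 scale (SE 0.09, adjusted p 0.0187), Vgll2 by 1.23 (SE 0.20, adjusted p 0.0104) at the low level of 2.37 against 1.01 CPM, and Vgll4, which competes with YAP for TEAD, by 0.19 (SE 0.05, adjusted p 0.0406). Tead3 and Tead4 were at -0.18 (adjusted p 0.134) and -0.21 (adjusted p 0.372), and Tead3 passed without K14J26 (adjusted p 0.0396). Vgll2 kept its call without any single embryo, whereas Tead2 lost it without J3, J5, J7 or K14J29 (adjusted p up to 0.0627) and Vgll4 without J3, J5, J6, J7, K14J29 or K14J30 (up to 0.101).

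The rest of a widely used YAP and TAZ target signature had values on both sides of 0. Of its 16 tested genes, 1 rose, 2 fell and 13 did not pass, with a median log2 fold change of 0.07 and 9 positive against 7 negative values. By library size alone the split was 6 positive to 10 negative. Foxf2, a mesenchymal forkhead factor, fell by 0.65 on the log2 scale (SE 0.11, adjusted p 0.0104), Rbms3, an RNA-binding protein, fell by 0.58 (SE 0.14, adjusted p 0.0273), and Myof, a membrane repair protein, rose by 0.47 (SE 0.13, adjusted p 0.0378). Axl, a receptor tyrosine kinase, was at -0.29 (adjusted p 0.0504), Igfbp3 at 0.12 (adjusted p 0.553) and Gadd45a, a stress-induced growth arrest gene, at 0.49 (adjusted p 0.312). Axl passed without K14J28 (adjusted p 0.0251). The value of Gadd45a rested on K14J26, at 34.5 CPM against 10.7 to 15.7 CPM in the other 7 embryos, and was 0.02 without it. Ankrd1, a much used YAP target, was at 0 counts except for 16 in J6 and 4 in J7, the controls with skeletal muscle transcripts, and was not tested. Foxf2 kept its call without any single embryo. Rbms3 lost it without J3, J5, J7, K14J29 or K14J30 (adjusted p up to 0.0801) and Myof without J3, J5, J6, J7 or K14J29 (up to 0.104).

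In the CCN family itself the direction was not shared. Ccn4, formerly Wisp1 and known as a Wnt target, rose by 1.42 on the log2 scale (SE 0.26, adjusted p 0.0135), from 118 ± 27.95 CPM in the controls to 316 ± 109 CPM in the mutants (SD, 4 embryos each). It lost the call without J7 or K14J29 (adjusted p up to 0.0513), and with the ameloblast score as a covariate its value was 0.46 (adjusted p 0.0642). Ccn3 was at -0.50 (adjusted p 0.235) and Ccn5 at 0.57 (adjusted p 0.381), and Ccn6, with 1 to 4 counts, was not tested. Ccn3 passed without K14J28, at -0.78 (adjusted p 0.0449).

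Ccn1 and Ccn2 are also known targets of serum response factor with its MRTF co-activators, and both respond as immediate early genes, so these lists were read beside them. Of 18 MRTF-SRF genes none rose and 3 fell in edgeR's test (1 was higher and 9 were lower at an unadjusted p under 0.05, beside 19.1% and 15.7% of all tested genes), and 15 had negative values under each scaling tried, with a median of -0.22. With the ameloblast score as a covariate 6 of these 15 were positive, among them Acta2 at 0.19 and Tagln at 0.12. Cnn2, an actin-binding calponin, fell by 0.67 on the log2 scale (SE 0.09, adjusted p 0.00768), Myl9, a myosin light chain, by 0.52 (SE 0.12, adjusted p 0.0268, groups overlapping), and Zyx, a focal adhesion protein, by 0.31 (SE 0.08, adjusted p 0.0282). Zyx shares exon bases with Epha1 on the opposite strand. DESeq2 called 7 of the 18 lower and 0 higher, beside 10% and 13.1% of all tested genes. The smooth muscle genes Acta2 and Tagln were at -0.50 (adjusted p 0.181) and -0.55 (adjusted p 0.128), and Srf at -0.19 (adjusted p 0.0589). Without K14J26 they were at -0.34 and -0.40, and without K14J28 they passed, at -0.82 (adjusted p 0.00805) and -0.84 (adjusted p 0.00704), as did Srf without K14J30 (adjusted p 0.0491). Cnn2 kept its call without any single embryo, while Myl9 lost it without J3, J5, J7, K14J29 or K14J30 (adjusted p up to 0.0788) and Zyx without J3, J5, J7 or K14J29 (up to 0.0844). Of the pericyte and smooth muscle markers given above, Pdgfrb was called lower and Kcnj8 higher, and their part in these values was not tested.

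Of 12 immediate early genes 2 fell and none rose in edgeR's test, while 2 were higher and 4 lower at an unadjusted p under 0.05 (19.1% and 15.7% of all tested genes), and DESeq2 called 1 higher and 3 lower (13.1% and 10%). Atf3 fell by 0.55 on the log2 scale (SE 0.11, adjusted p 0.0179) and Jun by 0.49 (SE 0.13, adjusted p 0.0364, groups overlapping). The uncalled genes Egr2 and Fosb, at under 3 CPM in each embryo, were at -0.94 (adjusted p 0.0584) and -0.83 (adjusted p 0.0654), each lower in every mutant than in any control. Fos and Egr1, other well-known genes of the list, were at 0.62 (adjusted p 0.0866) and 0.86 (adjusted p 0.143) and did not pass. Egr1 was at 96.9 CPM in K14J26 against 24.7 to 48.4 CPM in the other 7 embryos, and without K14J26 its value was 0.31, while Fos passed without K14J28 (0.79, adjusted p 0.0128). Atf3 lost its call without J3, J5 or K14J29 (adjusted p up to 0.0561), and Jun without J3, J5, J7 or K14J30 (up to 0.0994).

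**Figure D4:**
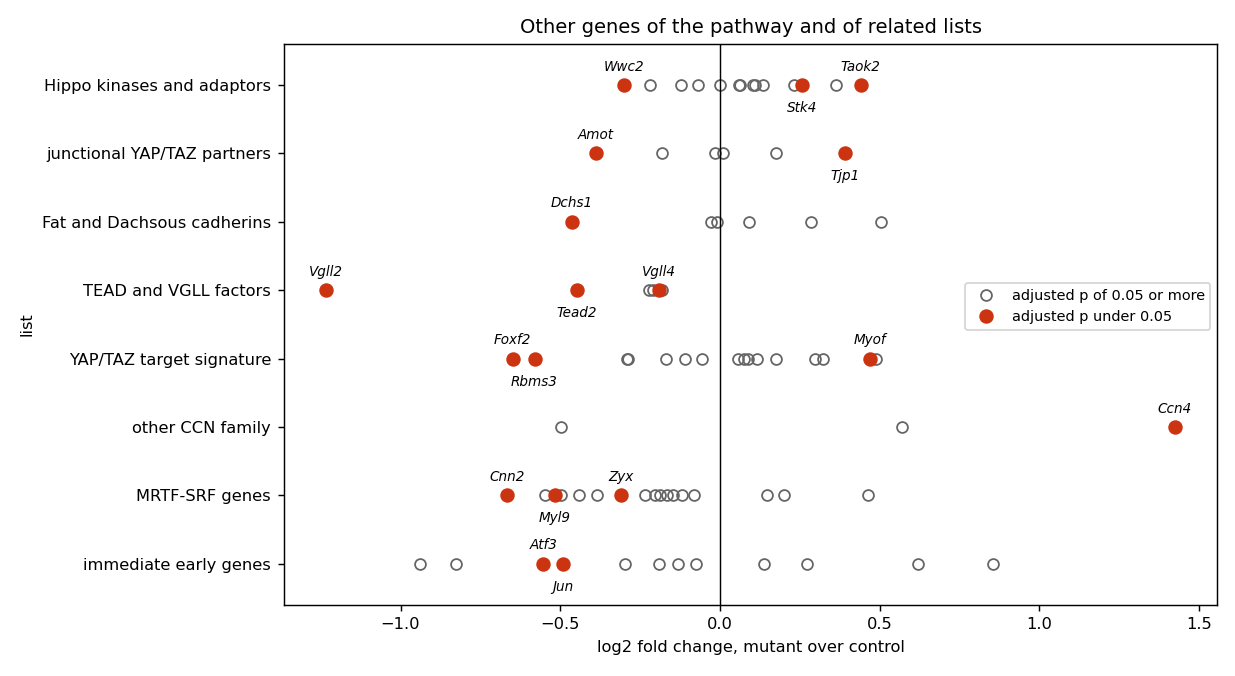
Log2 fold change, mutant over control (x axis), of the genes of 8 lists other than the 10 members (rows). Filled points passed an adjusted p of 0.05 in edgeR's quasi-likelihood test and open points did not. The TEAD and VGLL row, with 6 tested genes, lies wholly below 0. The target signature spreads to both sides, from -0.65 for Foxf2 to 0.49 for Gadd45a, the latter being 0.02 without K14J26.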

How the data were processed

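Per the labels and the study's methods, polyA RNA of 8 embryonic molar samples was sequenced, trimmed with Trimmomatic and aligned with STAR to GRCm38. The authors deposited raw counts per gene, 1 table per embryo. The methods name GenomicRanges for the counting and the submitters' processing notes name featureCounts and GRCm38.p3, and neither states how strand was treated, so opposite-strand overlaps cannot be resolved.

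A gene was tested if 2 or more of the 4 embryos of one group had 10 or more counts. Groups were compared with edgeR 4.0.16 (R 4.3.3), TMM scaling, the quasi-likelihood test and Benjamini-Hochberg adjustment over 17129 genes, and called at 0.05. The p-values set the difference between the groups against the spread between embryos. Litter and sex were not given and were not part of this comparison. SE was the log2 fold change over the square root of F. Gene positions and exon lengths came from GENCODE M21 (GRCm38), promoters from RefSeq.

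The members and lists were chosen with earlier results of these data known. Named from each list were its called genes and at most 3 well-known genes without a call (Dchs2, Egr2, Fosb, Vgll3, Wtip and the single marker genes were added after their values were seen), and for Ccn1 and Ccn2 the 5 nearest patterns among genes with a mean of at least 5 CPM. A further junctional gene is not reported here. The fit was tested on simulated data. Alternatives were DESeq2 1.42.0, other scalings and filters, Xist or ameloblast covariates, embryos left out, and the study's p and fold-change rule as read above.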

Additional observations from a re-analysis of the deposited data

Results flagged for a closer look

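Each member and list gene was examined for 1 embryo standing apart from the other 3 of its group, by the gap to its nearest neighbour relative to the range of the group. Of 182 groups of 4 embryos, 7 held such an embryo, and chance marks about 1 in 20 groups. Among the members, Fjx1 was at 25.67 CPM in K14J28 against 21.23 to 21.6 CPM in the other mutants, and Ajuba was at 210.8 CPM in J6 against 190 to 192 CPM in the other controls. Control J7 stood apart for Dchs1, at 109 CPM against 82.13 to 86.65, and for Fat4, at 78.36 CPM against 60.2 to 62.98. Mutant K14J26 stood apart for Mrtfb, at 74.71 CPM against 60.47 to 61.65, and for Ptpn14, at 162.3 CPM against 134.6 to 138.3. Control J6 stood apart for Tagln, at 68.45 CPM against 90.43 to 91.89.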

How the results depend on the processing

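No analysis paired or blocked by litter was possible, because the labels do not say which embryos shared a litter. The members kept their signs under every setting, except for Ajuba and Wwtr1. Their log2 fold changes moved most with the ameloblast covariate, to -1.06 for Ccn1, -0.73 for Ccn2, 0.030 for Amotl1, -0.38 for Ajuba, -0.12 for Yap1, -0.32 for Wwtr1 and -0.10 for Tead1. Amotl2 moved to -0.65 without J6 and J7, and Yap1 to -0.34 with library size scaling. Library size scaling moved the median over all genes to -0.09. The cause of these shifts was not tested.

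Counts of calls depended more on the embryos. Without J6 and J7, which leaves 2 controls, 7 genes in all passed and 0 in each of the 8 lists, against 2764 genes in all 8 embryos. With the ameloblast covariate 298 genes passed, with 1 junctional partner, 1 MRTF-SRF gene and 0 in the other lists, although the fold changes of Vgll2, Foxf2, Atf3, Jun, Vgll4 and Stk4 stayed close to those without it. DESeq2, which called 3962 genes in all, called 6 Hippo kinases and adaptors, 5 signature genes, 7 MRTF-SRF genes and 4 immediate early genes. With Xist as a covariate 2309 genes passed in all, and the calls were 1 for the kinases, 1 for the junctional partners, 0 for the cadherins, 2 for the CCN genes and 7 for the MRTF-SRF genes. Library size scaling gave 1 kinase of 1929 genes in all, and upper-quartile scaling (2811 in all) 5 signature genes. Without K14J28 and K14J29 2147 genes passed, and the calls were 1 kinase, 1 junctional partner, 0 cadherins and 7 MRTF-SRF genes. The study's p and fold-change rule, as read above, was met by 2428 genes in all. It gave 0 kinases, 0 junctional partners, 1 TEAD or VGLL factor and 5 immediate early genes. Its 1 cadherin was Dchs2, higher in the mutants, in place of Dchs1. The cause was not tested.

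With 1 embryo left out the calls ran from 420 to 4324 over all genes, 1 to 4 for kinases and for TEAD or VGLL factors, 0 to 3 for junctional partners, 0 to 1 for cadherins, 1 to 5 for the signature, 0 to 2 for CCN genes, 1 to 9 for MRTF-SRF genes and 0 to 3 for immediate early genes.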
